A study of Homo sapiens with 9 samples.

Results

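Long intergenic noncoding RNA (LINC) genes with enough reads to be measured were described across HEK293 cells that lack, regained or never lost the ubiquitin ligase UBE3D. The members were selected on their counts: all genes whose symbol was LINC followed only by digits and whose mean raw count over the 9 libraries was at least 30. This gave 165 of the 876 LINC genes in a table of 26485 genes, and all 165 entered the test. HEK293 is a human embryonic kidney cell line, and every library was made from its poly(A)-selected RNA. The KO group (3 libraries) carried a UBE3D gene knocked out with CRISPR/Cas9. The addback group (3 libraries) was labelled as UBE3D addback cells, and UBE3D RNA was very high in them. The WT group (3 libraries) was wild type. The labels give neither the number of KO clones nor the vector of the addback cells, and they mark the samples as pooled without naming separate cultures, so p-values here cover only the spread between these libraries. The series asks what the loss of UBE3D does in cells where the target of interest is CPSF3 (CPSF73), the endonuclease that cuts nascent transcripts at the poly(A) site.

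LINC symbols are placeholders, given to transcribed loci that lie outside protein coding genes until a function earns them a name. Most LINC RNAs are capped, spliced and polyadenylated by the same machinery as mRNA, the cleavage factor CPSF3 included, and they are usually less abundant and more restricted to particular tissues than mRNA. Several loci that started with a LINC symbol were later found to encode small proteins or to act as regulatory RNAs. In the RefSeq annotation, 15 of the 165 members now count as protein coding, among them LINC00493 (SMIM26), LINC01420 (NBDY), LINC00116 (MTLN) and LINC00998 (SMIM30). The members lay on every autosome and on chromosome X, with 19 on chromosome 1 and 1 on chromosome 4. Their exons summed to a median of 2161 bases, and 23 had 1 exon only.

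Library totals ran from 23088295 to 37508780 counts. Levels are CPM (counts scaled to a common library size) after scaling on the 5434 genes with a mean of at least 50 CPM. UBE3D RNA was 13.0 to 15.6 CPM in KO libraries, against 19.5 to 26.5 CPM in WT libraries, a log2 fold of -0.64 ± 0.13 (SE; edgeR quasi-likelihood adjusted p = 0.00361). It was 2787 to 3362 CPM in addback libraries, far above both other groups. CPSF3 RNA was 116 to 120 CPM in KO, 110 to 114 CPM in addback and 103 to 114 CPM in WT libraries, with a log2 fold of 0.13 ± 0.04 for KO against WT (adjusted p = 0.0216). Of 7 HEK293 markers, 6 reached a mean of 1 CPM in KO libraries and 7 in addback and WT libraries. The exception was PAX8, a kidney transcription factor, at 0 to 0.183 CPM in KO, against 1.17, 6.75 and 4.05 CPM in WT libraries. The other markers also differed between KO and WT, without overlap of libraries. PAX2 (2.02 to 3.46 CPM in KO, 10.2 to 17.6 CPM in WT) and NEFM were lower in KO. VIM (1221 to 1498 CPM in KO, 628 to 664 CPM in WT), NEFL, KRT8 and KRT18 were higher in KO.

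The libraries differed in how many reads fell on genes that HEK293 cells are not known to use. Over 559 odorant receptor, bitter taste receptor, keratin-associated and beta defensin genes, KO libraries held 485, 487 and 650 counts, addback libraries 11091, 50837 and 50788, and WT libraries 12464, 44777 and 46879. Libraries 2 and 3 of addback and of WT were thus higher than library 1 of the same group, and all KO libraries were far lower than the others. Between 14.3 and 18.2% of these genes had a count in a KO library, against 94.6 to 95.7% in addback and WT libraries. Marker lists of other tissues were lower in KO to varying degrees. Summed over 5 kidney tubule markers the level was 2.53 to 3.23 CPM in KO, 14.5 to 50.4 CPM in addback and 13.2 to 50.3 CPM in WT libraries, and over 3 liver markers it was 0.179 to 0.769, 3.74 to 12.7 and 3.36 to 28.0 CPM in the same order of groups. Over 3 muscle markers the ranges were 2.86 to 3.18, 10.02 to 33.6 and 5.71 to 32.5 CPM. The blood, skin and breast sums differed less, at 25.4 to 31.6, 41.1 to 67.6 and 33.6 to 88.9 CPM for 4 blood markers, 25.5 to 30.96, 44.2 to 54.3 and 38.9 to 51.2 CPM for 3 skin markers and 28.8 to 34.3, 45.1 to 69.1 and 42.6 to 73.7 CPM for 4 breast epithelium markers. Some single markers did not follow: HBB, a haemoglobin gene, was at 24.8 to 30.9 CPM in KO and 24.7 to 32.3 CPM in WT, and ACTA1, a muscle actin gene, was at 2.20 to 2.38 CPM in KO against 1.07 CPM in WT 1. In KO libraries the blood, skin and breast sums were nearly all HBB, KRT10 and GATA3 in turn. Other markers of these lists could be far lower in KO, such as PTPRC at 0.256 to 0.440 CPM against 6.55 to 43.5 CPM in WT. In KO 1 marker each of the blood, skin, breast and muscle lists reached a mean of 1 CPM. In addback and in WT 4, 2, 4 and 3 did. Of the 5 kidney tubule markers, 1 reached a mean of 1 CPM in KO and 5 in addback and WT. Of the 3 liver markers, 0 did in KO and 3 in addback and WT, and the part of all these reads in the LINC results below was not tested.

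The members fell into 3 classes by how they behaved inside WT and inside addback. The mean CPM of libraries 2 and 3 was divided by that of library 1 in each group. In 41 members this ratio was at least 2 in both groups, and they are called high in libraries 2 and 3. In 99 members it lay between 1/1.5 and 1.5 in both groups, and they are called steady. The other 25 members met neither rule. Among all 21994 tested genes, 31.5% were high in libraries 2 and 3, 54.6% were steady and 13.9% met neither rule. The median ratio of the tissue-restricted genes with a mean raw count of 30 or more was 4.33 in addback and 4.04 in WT, whereas that of the scaling genes was 1.00 in both.

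Summed over the 99 steady members, the level was 1594, 1563 and 1600 CPM in KO libraries, 1491, 1453 and 1466 CPM in addback libraries and 1470, 1414 and 1395 CPM in WT libraries. The KO sums were all above those of addback and WT, but a few abundant members carry that. Of 159.9 CPM between the KO and WT means, the 4 largest rises were LINC00657 with 90.8, LINC00641 with 33.6, LINC00667 with 18.6 and LINC01521 with 14.4 CPM. The other 95 members together gave 2.5 CPM, but rises and falls cancel in that sum. Among them, LINC01000 was at -31.1 CPM and LINC00674 at 13.8 CPM. The median log2 fold of the 99 steady members for KO against WT was -0.01. Summed over the 41 members high in libraries 2 and 3, it was 7.36, 5.11 and 5.997 CPM in KO libraries, 31.1, 110 and 112 CPM in addback libraries and 29.6, 103 and 123 CPM in WT libraries. In this class library 1 of addback and of WT sat between the KO libraries and the other libraries of its own group. That order was largely set by the class rule and, for KO, by the minimum of 30 counts. Each of the 165 members had a count in every addback and WT library, whereas 150 did in each KO library, and 10 members had no count in any KO library. All 41 members high in libraries 2 and 3 had a mean of under 30 counts in KO libraries, as had 2 steady members and 5 of the class that met neither rule. They passed the minimum of 30 only through addback and WT, so a lower level in KO was set by their selection. Fewer cells with a transcript and less RNA per cell cannot be told apart in bulk samples.

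**Figure D1:**
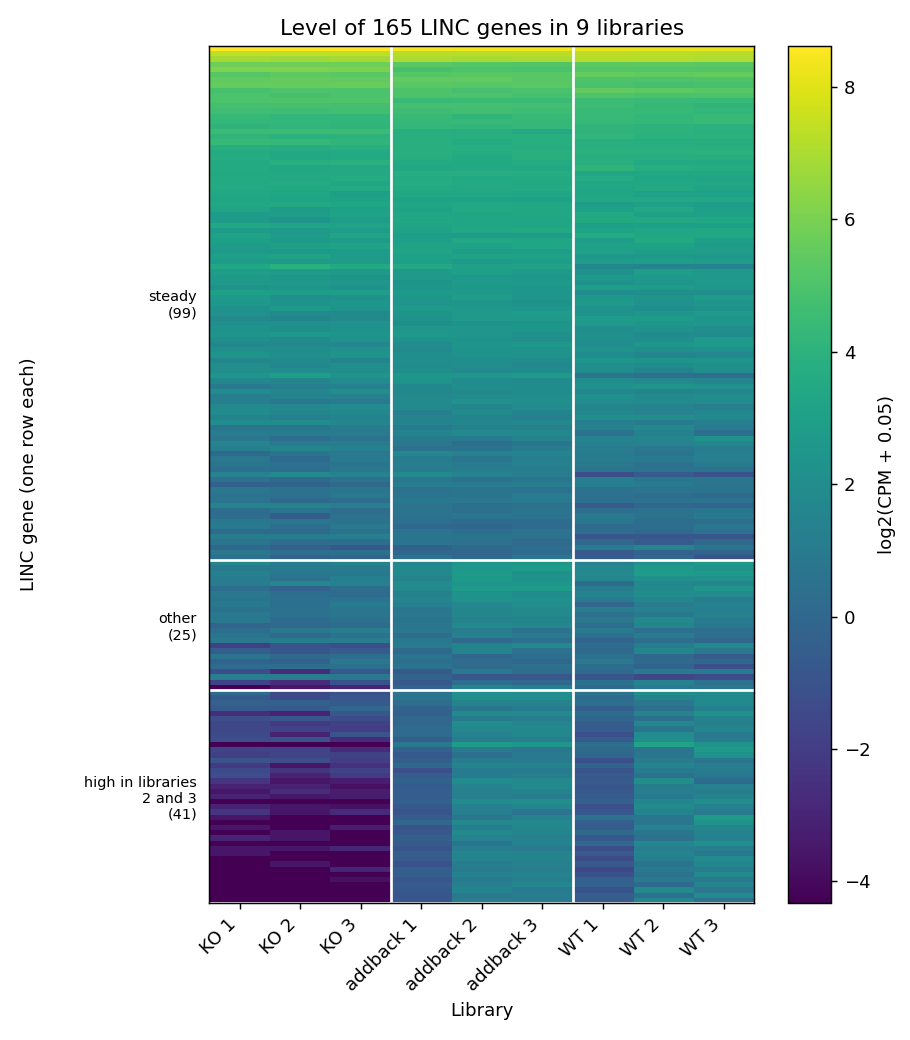
Each row is 1 of the 165 LINC genes and each column a library, coloured by log2(CPM + 0.05), with rows grouped into the steady (99), other (25) and high in libraries 2 and 3 (41) classes and sorted by mean level within each. The steady rows are even inside addback and inside WT, as their rule asks, but can differ between groups, as in LINC00641 and LINC00460. The bottom class is dark in KO, intermediate in addback 1 and WT 1 and brighter in libraries 2 and 3 of addback and WT.

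**Figure D2:**
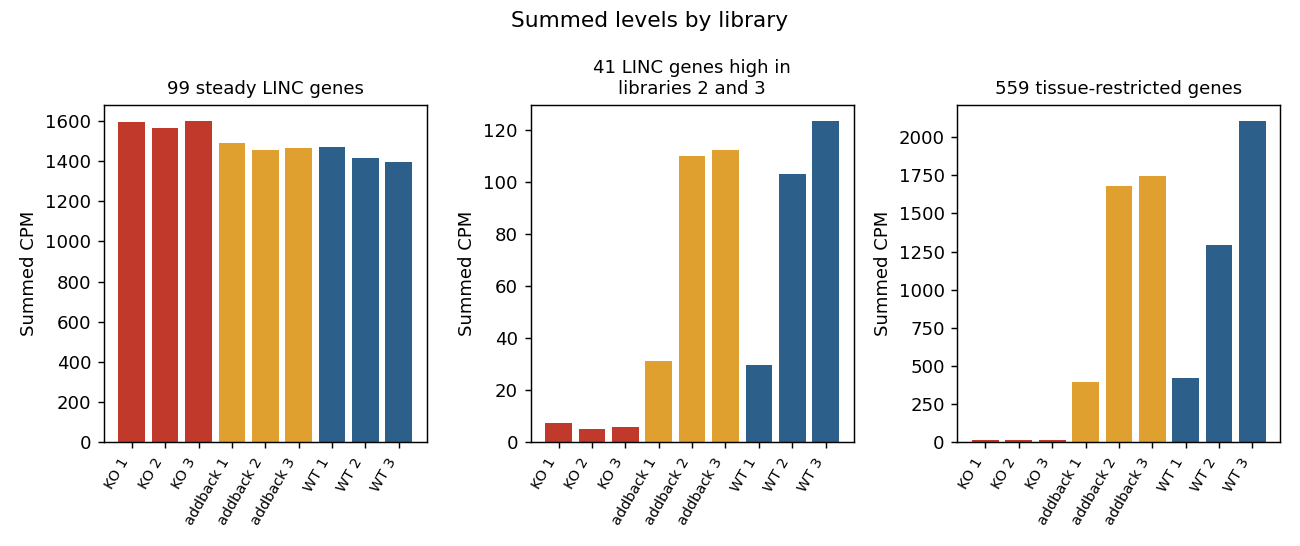
Bars give the summed CPM of the 99 steady LINC genes, of the 41 LINC genes high in libraries 2 and 3 and of the 559 tissue-restricted genes in each library (KO red, addback yellow, WT blue). The middle and right panels share a coarse order, with KO near 0, addback 1 and WT 1 intermediate and the other libraries highest. The left panel stays between 1395 and 1600 CPM.

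The classes had different median CG content upstream of the gene, which is given without a test. RefSeq promoter windows (250 bases before to 50 after the start, GRCh38.p14) were matched by symbol for 132 members and kept for the 123 whose start lay within 1000 bases of the deposited start. The median number of CG dinucleotides per window was 4 in the class high in libraries 2 and 3 (29 windows), 11 in the class that met neither rule (17 windows) and 20 in the steady class (77 windows), against 14 over all 27305 promoter windows. CG-rich windows are typical of broadly used promoters and CG-poor ones of tissue-restricted promoters. The range within each class was wide, 0 to 33 in the first and 0 to 47 in the steady class. The 4 windows printed here are picked examples, with each CG in capitals. For the class high in libraries 2 and 3 only windows with few CG are shown, although LINC00471 of that class had 33. LINC00667 (38 CG, chr18:5237850-5238149, plus strand) and LINC00641 (2 CG, chr14:21206851-21207150, minus strand) are steady members that were higher in KO. LINC01387 (0 CG, chr18:6511166-6511465, plus strand) and LINC00303 (7 CG, chr1:204041216-204041515, minus strand) belong to the class high in libraries 2 and 3 and had no count in KO.
LINC00667: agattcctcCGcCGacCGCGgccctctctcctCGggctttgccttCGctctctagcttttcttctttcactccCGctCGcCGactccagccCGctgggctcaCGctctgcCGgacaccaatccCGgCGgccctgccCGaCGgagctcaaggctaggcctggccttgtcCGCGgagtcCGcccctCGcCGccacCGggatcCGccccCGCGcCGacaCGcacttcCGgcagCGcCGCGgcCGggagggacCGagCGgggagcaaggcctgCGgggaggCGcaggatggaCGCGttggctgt
LINC00641: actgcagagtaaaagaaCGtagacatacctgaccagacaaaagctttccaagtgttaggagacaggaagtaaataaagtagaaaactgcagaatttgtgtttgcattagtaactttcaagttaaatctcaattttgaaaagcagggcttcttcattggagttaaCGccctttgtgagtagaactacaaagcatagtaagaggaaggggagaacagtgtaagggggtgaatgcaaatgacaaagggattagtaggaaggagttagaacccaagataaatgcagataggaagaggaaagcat
LINC01387: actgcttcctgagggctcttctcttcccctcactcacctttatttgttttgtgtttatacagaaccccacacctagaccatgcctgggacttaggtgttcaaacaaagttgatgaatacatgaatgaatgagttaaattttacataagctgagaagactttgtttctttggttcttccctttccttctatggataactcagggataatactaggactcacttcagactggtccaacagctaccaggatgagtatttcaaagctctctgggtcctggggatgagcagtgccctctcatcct
LINC00303: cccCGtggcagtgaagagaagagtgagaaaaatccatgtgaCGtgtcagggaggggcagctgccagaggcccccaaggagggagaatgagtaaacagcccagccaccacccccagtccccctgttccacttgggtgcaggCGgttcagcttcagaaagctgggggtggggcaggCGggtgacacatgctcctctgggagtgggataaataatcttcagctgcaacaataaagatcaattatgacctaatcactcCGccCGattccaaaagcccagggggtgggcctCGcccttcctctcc
LINC00641 shows that a steady member can have a CG-poor window. The core of the interferon-stimulated response element, GAAA, any 2 bases and GAAA, or TTTC, any 2 bases and TTTC on the other strand, was in 3 of the 123 windows (LINC01138, LINC00582 and LINC00669), or 2.44%, against 3.65% of all promoter windows.

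Between KO and WT cells, 19 members were higher and 60 lower (edgeR quasi-likelihood test, Benjamini-Hochberg adjusted p under 0.05 over all tested genes). Over all tested genes 8.82% were higher and 53.3% lower, so the LINC share of 11.5% higher was close to the background and its 36.4% lower was under it. The median log2 fold was -0.28 over the members and -0.49 over all tested genes. The 60 lower members were mostly of the class that moves with the tissue-restricted reads: 40 of those 41 members were lower and none higher (0 also at an unadjusted p under 0.05 and with the DESeq2 test), and the exception was LINC00933 (adjusted p = 0.148). For this class the count is a description, since its members passed the minimum only where they were high. Of the 99 steady members 18 were higher and 11 lower, and of the other 25, 1 was higher and 9 lower. With TMM scaling over all tested genes, the median of all genes moved to -0.12, the split of members became 30 higher and 44 lower, and the steady split became 28 higher and 0 lower (1 lower at an unadjusted p under 0.05, edgeR). Of the 11 lower steady members 9 still had a fold below 0 under that scaling, from -1.23 up to 0.14 over the 11. DESeq2 size factors gave 27 higher and 49 lower members, and 3 of the 11 steady ones (LINC00896, LINC00472 and LINC00893) were still called lower. Upper quartile factors still called 7 of the 11 lower.

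The ratio inside addback and the fold of KO against WT are plotted against each other as a description. Same-number libraries of addback and WT deviated together, so the addback ratio largely repeats the WT ratio, and neither is independent of the fold. Of 44 members with an addback ratio of at least 2, 42 were lower, against 93.2% of 7406 such genes among all tested. Whether the reads on tissue-restricted genes account for the lower members was not tested. All KO libraries hold few such reads, so for the 41 members a difference between groups and one in those reads cannot be told apart. Leaving out WT 2, WT 3, addback 2 and addback 3 does not separate these 2 differences. Only WT 1 and addback 1 then remain beside KO. Their tissue-restricted genes summed to 418 and 395 CPM, against 16.7 to 17.8 CPM in KO libraries.

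**Figure D3:**
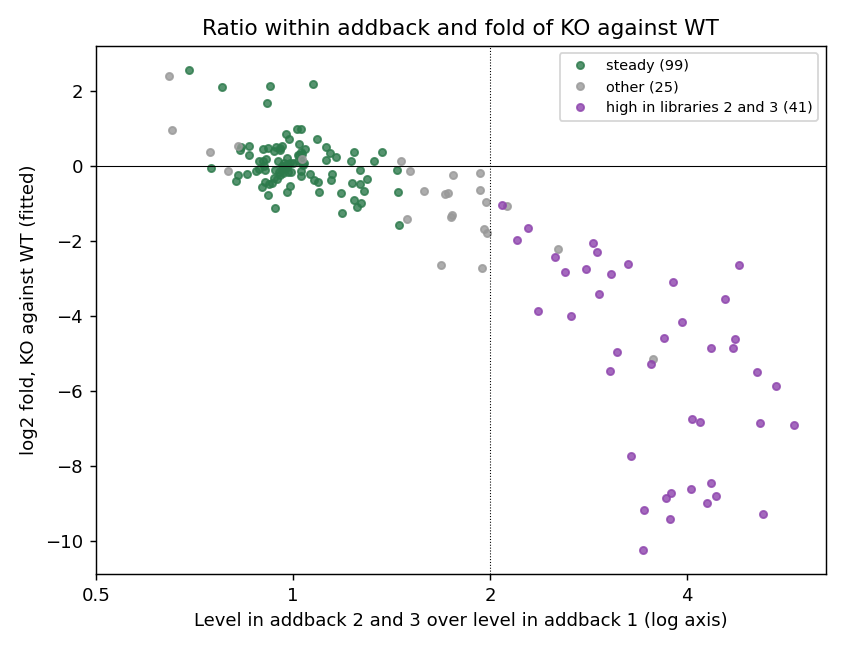
Each point is 1 of the 165 LINC genes. The x axis (log scale) is the mean CPM in addback 2 and 3 over the CPM in addback 1, the y axis is the fitted log2 fold of KO against WT, and the dotted line marks a ratio of 2. Points near a ratio of 1 lie around a log2 fold of 0, and 42 of the 44 points at a ratio of 2 or more were called lower. Folds of the 10 members with no count in KO depend on the prior count of the fit and are not bounds.

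The largest rises in KO were in LINC RNAs that were scarce in WT. LINC00460 (chr13:106376563-106377792, plus strand, 3 exons), an RNA reported to be high in several carcinomas, was at 2.64, 3.38 and 2.64 CPM in KO libraries, against 0.369, 0.634 and 0.449 CPM in WT libraries. The WT values rest on 11, 22 and 10 counts. The log2 fold was 2.56 ± 0.45 (adjusted p = 0.00202), and every KO library was above every WT library. EFNB2, an ephrin ligand gene 111939 bases away on the other strand, had a log2 fold of 0.66 (adjusted p = 2.1e-05). LINC01411 was at 5.53, 7.99 and 5.20 CPM in KO and 1.61, 1.30 and 1.17 CPM in WT libraries, a log2 fold of 2.19 ± 0.34 (adjusted p = 0.00144). LINC00673, an RNA studied in pancreatic cancer for its part in the turnover of the phosphatase PTPN11, was at 10.4, 14.7 and 11.6 CPM in KO and 3.22, 2.71 and 2.61 CPM in WT libraries, a log2 fold of 2.10 ± 0.24 (adjusted p = 0.00058). LINC00672, which RefSeq lists as the coding gene LASP1NB, was at 2.16, 2.09 and 2.38 CPM in KO and 0.504, 0.519 and 0.494 CPM in WT libraries, with a log2 fold of 2.12 ± 0.40 (adjusted p = 0.00243). LASP1, a neighbour of LINC00672 on the same strand, had a log2 fold of 0.22 (adjusted p = 0.00333). The coding neighbours of the other 2 did not pass the test: MSX2, beside LINC01411, had a log2 fold of -0.05 (adjusted p = 0.613), and SLC39A11, beside LINC00673, one of 0.09 (adjusted p = 0.43). In all 4 genes the KO and WT libraries did not overlap.

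These 4 RNAs were also higher in addback cells than in WT cells. LINC00460 was at 3.49, 2.64 and 2.20 CPM in addback libraries, LINC01411 at 5.67, 5.82 and 6.37, LINC00673 at 11.02, 8.49 and 8.67, and LINC00672 at 1.60, 1.59 and 1.38 CPM. For addback against WT the log2 folds were 2.51 ± 0.45 for LINC00460 (adjusted p = 0.00856), 2.13 ± 0.34 for LINC01411 (adjusted p = 0.00474), 1.72 ± 0.24 for LINC00673 (adjusted p = 0.0022) and 1.58 ± 0.40 for LINC00672 (adjusted p = 0.038). None of the 4 passed the test for addback against KO, with log2 folds of -0.05 for LINC00460 and -0.38 for LINC00673, although the addback libraries of LINC00672 all lay below its KO libraries. The call of LINC00672 for addback against WT was lost whichever library was left out (adjusted p 0.06 to 0.141).

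Other RNAs were higher in KO and lower again in addback. LINC00641 (chr14:21200079-21206900, minus strand, 3 exons; neighbour of HNRNPC, a splicing regulator gene, at 2236 bases) was at 69.7, 68.5 and 67.1 CPM in KO libraries, 29.4, 30.6 and 29.9 CPM in addback libraries and 36.0, 34.2 and 34.3 CPM in WT libraries. The 3 groups did not overlap, which the naming rule asked for addback against KO and addback against WT. The log2 fold was 0.97 ± 0.04 for KO against WT (adjusted p = 1.01e-05) and -1.19 ± 0.04 for addback against KO (adjusted p = 2.17e-06). HNRNPC itself had a log2 fold of 0.12 for KO against WT (adjusted p = 0.0391). The addback level of LINC00641 was also below WT, by a log2 fold of -0.22 ± 0.04 (adjusted p = 0.0159), a call lost without addback 1 (adjusted p = 0.0517), addback 3 (0.0512) or WT 1 (0.0642).

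LINC00176, listed by RefSeq as the coding gene C20orf204, was at 23.7, 23.1 and 23.3 CPM in KO, 14.3, 13.2 and 11.3 CPM in addback and 17.0, 16.5 and 14.97 CPM in WT libraries. Its log2 fold was 0.53 ± 0.11 for KO against WT (adjusted p = 0.0037) and -0.86 ± 0.11 for addback against KO (adjusted p = 0.0018). LINC01521 was at 53.6, 55.3 and 54.9 CPM in KO, 40.04, 37.2 and 34.9 CPM in addback and 41.02, 40.5 and 39.1 CPM in WT libraries, with log2 folds of 0.44 and -0.55 in the same 2 comparisons, both called. For LINC00176 and LINC01521 the KO libraries lay above all others, which the naming rule asked for addback against KO. LINC01128 had log2 folds of 0.59 for KO against WT and -0.53 for addback against KO, and LINC00997 of 0.50 and -0.52, both called in each. LINC00304 was at 2.23, 2.16 and 1.74 CPM in KO, 0.820, 0.529 and 0.516 CPM in addback and 0.504, 0.288 and 0.360 CPM in WT libraries. Its log2 fold was 2.40 ± 0.46 for KO against WT (adjusted p = 0.00254) and -1.71 ± 0.44 for addback against KO (adjusted p = 0.0103), and the second call was lost without addback 2 (0.0516) or addback 3 (0.0544). LINC01341 was at 2.75, 2.73 and 2.31 CPM in KO and 0.604, 0.922 and 0.899 CPM in WT libraries, a log2 fold of 1.68 ± 0.41 (adjusted p = 0.00723), and at 1.32 to 1.497 CPM in addback libraries. Its addback libraries all lay below its KO libraries, but addback against KO did not pass the edgeR test (log2 fold -0.88, adjusted p = 0.089). In WT libraries LINC01341 had 18, 32 and 20 counts, a mean under the minimum. It passed only through KO and addback, so a lower level in WT was set by its selection.

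**Figure D4:**
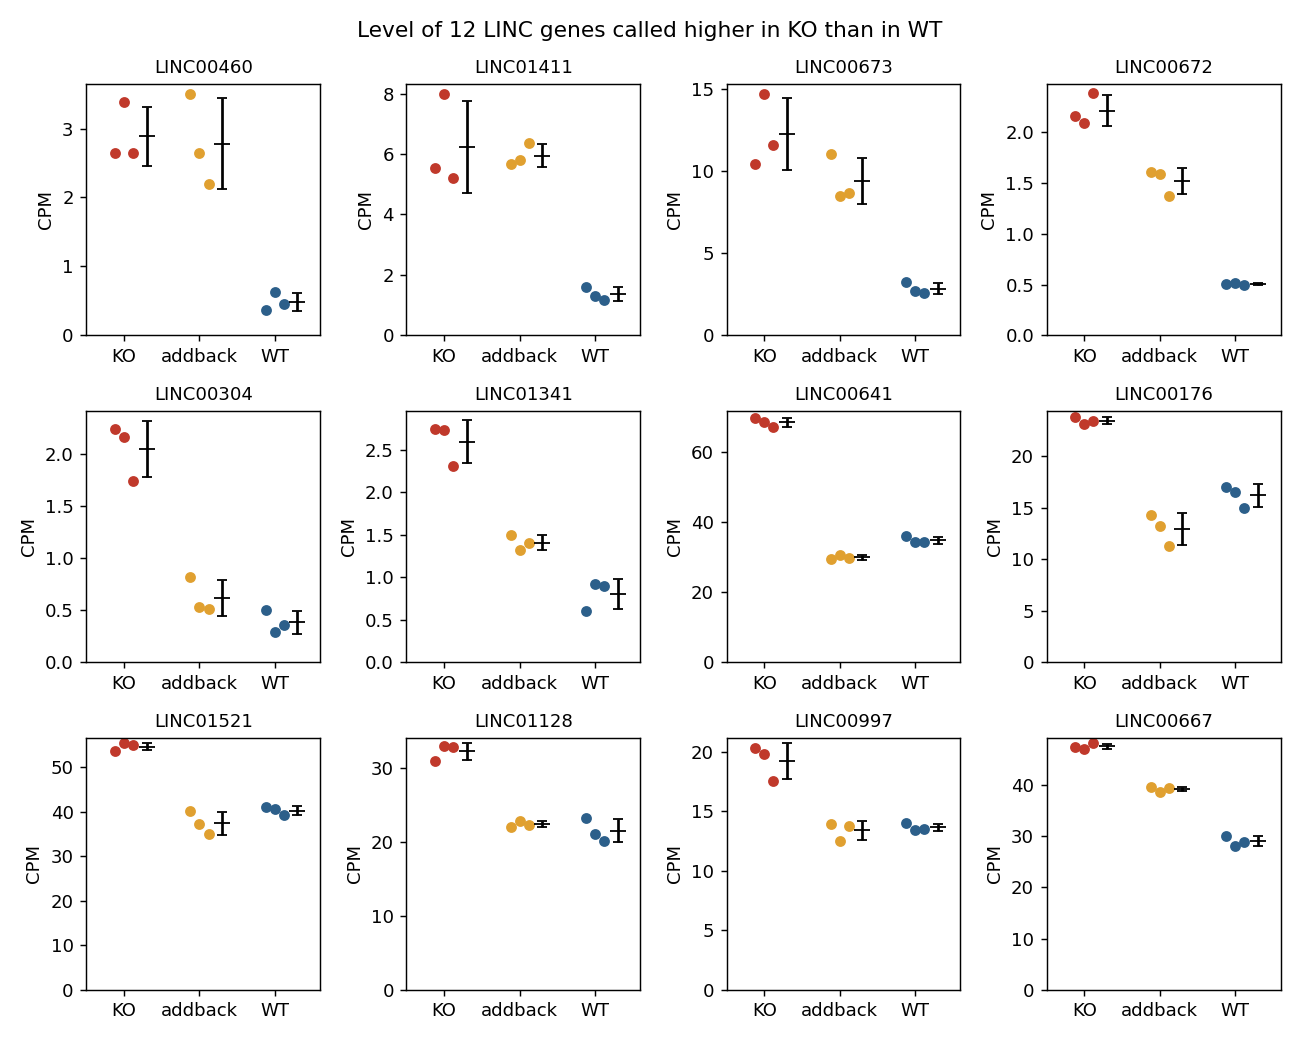
Points give the CPM of 12 LINC genes in each of the 3 libraries of KO, addback and WT (1, 2 and 3 from left to right), with the mean and SD of the group beside them. In LINC00460 and LINC01411 the addback points overlap those of KO, in LINC00641, LINC00176, LINC01521, LINC01128 and LINC00997 they lie near or below those of WT, and in LINC00672, LINC00304, LINC01341 and LINC00667 they lie between those of KO and WT.

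Between addback and KO cells, 58 members were higher and 9 lower. The background was 51.9% higher and 5.6% lower over all tested genes, and the median log2 fold was 0.33 over the members and 0.49 over all genes. This comparison shares its KO libraries with that of KO against WT. Of the 58 higher members 40 were in the class high in libraries 2 and 3, 12 in the class that met neither rule and 6 were steady. For the class high in libraries 2 and 3 the count is a description. Its members passed the minimum of 30 only through addback and WT, so a lower level in KO was set by their selection. The 9 lower members comprised 8 steady ones and LINC00304. TMM scaling over all tested genes gave 45 higher and 20 lower members, with the median of all genes at 0.14 and the steady split at 0 higher (0 also at an unadjusted p under 0.05, edgeR) and 19 lower. DESeq2 size factors gave 45 higher and 21 lower members. The higher count fell to 35 without KO 2, 37 without addback 2 and 36 without addback 3.

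The lowest folds for KO against WT belong to members with no count in KO at all. These 10 could pass the minimum of 30 only through addback and WT, so their direction was fixed by the selection. Library 1 was below the mean of libraries 2 and 3 in addback and in WT, as the rule of their class asks. A likeness to the tissue-restricted reads was thus built into their choice. Which of libraries 2 and 3 was the higher varied among these 10. Their levels are given as a description of these libraries. LINC00452 (chr13:113895103-113921317, plus strand, 8 exons) was at 0 in all 3 KO libraries, at 1.82, 6.97 and 5.57 CPM in addback libraries and at 1.24, 9.37 and 4.72 CPM in WT libraries. Against a floor of 3 counts over the KO group KO was at least 160-fold lower than WT and addback at least 150-fold higher than KO, and without WT 2 the first bound was 93.5-fold. LINC01387 was at 0.749, 3.90 and 4.09 CPM in addback and at 0.739, 3.00 and 4.14 CPM in WT libraries, with KO at least 82.3-fold lower than WT (58.6-fold without WT 3). LINC00303, whose promoter window is printed above, was at 0.606, 2.61 and 2.72 CPM in addback and at 0.336, 2.31 and 3.73 CPM in WT libraries, and at least 66.6-fold lower in KO (41.4-fold without WT 3). In each of these genes library 1 was the lowest of its group in both addback and WT, as the class rule largely sets. LINC01205 was at least 90.7-fold lower in KO, relative to WT. LINC01591 was at least 76.2-fold lower (36.8-fold without WT 3), LINC01010 at least 61.1-fold (30.9-fold), LINC01537 at least 55.7-fold (28.5-fold) and LINC00293 at least 46.7-fold (28.4-fold). LINC00905 and LINC00851 were at least 58.2-fold and 51.6-fold lower, and 34.3-fold and 31.3-fold without WT 2. In all, the bound moved by over 1.5 times in 8 of the 10 when 1 WT library was left out, and read from WT 1 alone the 10 bounds were 10.5 to 39-fold. All 10 belong to the class high in libraries 2 and 3, and none of them passed the test for addback against WT. Of their 10 coding neighbours, 5 were lower in KO, 1 was higher and 4 did not pass the test, beside 53.3% lower over all tested genes. DPPA4, a pluripotency gene next to LINC01205, was among the lower ones (adjusted p = 0.00242), TPM4, a tropomyosin gene next to LINC00905, was the higher one (log2 fold 0.44, adjusted p = 0.00224), and SGK1, a kinase gene next to LINC01010, did not pass (0.11, adjusted p = 0.753). LINC01118, of the class that met neither rule and chosen after its values were seen, was at 0, 0.0360 and 0.0769 CPM in KO, 0.749, 3.04 and 2.37 CPM in addback and 1.01, 2.05 and 1.75 CPM in WT libraries.

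Between addback and WT cells, 8 members were higher and 3 lower, with a background of 5.14% higher and 4.14% lower. That fit held group only, as did those behind all adjusted p-values named here for this pair. Libraries of addback and WT with the same replicate number deviated together, although the labels state no pairing. With the replicate number in the fit, as a block, 8 members were higher and 5 lower, with a background of 6.74% and 5.42%, and LINC01000 and LINC00476 joined the lower ones. All 11 members called without the block were steady. None of the 41 members high in libraries 2 and 3 was called by edgeR. At an unadjusted p under 0.05, edgeR and the DESeq2 test also gave 0 of these 41. DESeq2 gave no adjusted p for several of the 41, such as LINC00452 and LINC00303. The higher members were the 4 named above and LINC00667, LINC00657, LINC01578 and LINC01420. The lower members were LINC00094, LINC00998 and LINC00641. With TMM over all tested genes 3 were higher and 0 lower, and with DESeq2 size factors 4 and 0. At an unadjusted p under 0.05 edgeR gave 5 and 7 lower members in these 2 settings.

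The most abundant members per length included RNAs and small proteins with known roles. LINC00657 (NORAD) binds Pumilio proteins in the cytoplasm and helps to keep chromosome number stable. It had a level of 72.0 CPM per kilobase in KO, 61.9 in addback and 55.1 in WT libraries. LINC00493 (SMIM26, a mitochondrial microprotein) had 62.2 CPM per kilobase in KO, 62.8 in addback and 64.1 in WT, so of these 2 NORAD was the more abundant in KO and the less abundant in WT. In CPM, NORAD was at 384, 377 and 394 in KO, 346, 322 and 325 in addback and 301, 292 and 290 in WT libraries, so the 3 groups did not overlap. Its log2 fold was 0.39 ± 0.03 for KO against WT (adjusted p = 0.000205), -0.22 ± 0.03 for addback against KO (adjusted p = 0.00225) and 0.17 ± 0.03 for addback against WT (adjusted p = 0.0166), and the last call was lost without addback 1 (0.0635) or WT 2 (0.0572). LINC00667 showed the same order, at 47.4, 47.1 and 48.2 CPM in KO, 39.6, 38.7 and 39.5 CPM in addback and 30.1, 28.1 and 28.8 CPM in WT libraries. Its log2 folds were 0.71 ± 0.05 for KO against WT (adjusted p = 5.4e-05), -0.28 ± 0.05 for addback against KO and 0.44 ± 0.05 for addback against WT (adjusted p = 6e-04). In both genes the addback libraries lay between those of KO and WT. The addback against WT call of NORAD was also lost with TMM over all tested genes (adjusted p = 0.815), upper quartile factors (0.332) and DESeq2 size factors (0.718), and that of LINC00667 with TMM over all tested genes (0.0788).

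LINC01578 (CHASERR), known from mice to restrain its neighbour CHD2, a chromatin remodeller gene, was at 44.1, 45.5 and 44.4 CPM in KO, 44.8, 43.8 and 38.3 CPM in addback and 31.7, 32.0 and 33.4 CPM in WT libraries. Its log2 fold was 0.46 ± 0.07 for KO against WT (adjusted p = 0.00115) and 0.39 ± 0.07 for addback against WT (adjusted p = 0.00635). The second call was lost with TMM over all tested genes (edgeR adjusted p = 0.134) and with DESeq2 size factors (0.0774). CHD2 RNA had a log2 fold of 0.18 for KO against WT (adjusted p = 0.0419) and of 0.22 for addback against KO (adjusted p = 0.0199). LINC01420 (NBDY), a microprotein of the mRNA decapping machinery, was at 28.4, 28.8 and 27.6 CPM in KO, 27.8, 27.1 and 26.0 CPM in addback and 23.6, 19.4 and 18.0 CPM in WT libraries. Its log2 fold was 0.47 ± 0.10 for KO against WT (adjusted p = 0.00387) and 0.41 ± 0.10 for addback against WT (adjusted p = 0.0362). Among the 9 fits that leave out 1 library, the second call was kept only without WT 1 (adjusted p 0.066 to 0.123 in the other 8). That call was also lost with TMM over all tested genes (edgeR adjusted p = 0.348), upper quartile factors (0.122) and DESeq2 size factors (0.241). LINC00674 was higher in KO by a log2 fold of 0.12 and LINC00909 by 0.30, and neither call held without WT 2, WT 3, addback 2 and addback 3 (adjusted p = 0.106 and 0.0931). LINC00493 did not pass the test in any comparison, at 29.1 to 31.5 CPM in KO, 28.8 to 32.3 CPM in addback and 29.9 to 32.8 CPM in WT libraries.

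A few abundant members were lower in KO on the scaling used here. LINC00094 (BRD3OS) was at 28.6, 31.6 and 30.9 CPM in KO, 32.2, 28.3 and 30.1 CPM in addback and 44.98, 40.6 and 38.3 CPM in WT libraries. The log2 fold was -0.44 ± 0.08 for KO against WT (adjusted p = 0.00215) and -0.45 ± 0.08 for addback against WT (adjusted p = 0.00775). LINC00094 shares 22.2% of its exon bases with BRD3 on the other strand, and BRD3, a bromodomain gene, was lower in KO by a log2 fold of -0.33. The sources used here do not say whether reads were counted by strand, so reads of the 2 genes cannot be told apart there. LINC01000 was at 116, 105 and 116 CPM in KO, 131, 120 and 129 CPM in addback and 151, 144 and 136 CPM in WT libraries, a log2 fold of -0.35 ± 0.06 for KO against WT (adjusted p = 0.00165) and 0.17 ± 0.06 for addback against KO (adjusted p = 0.0324). LINC00998 (SMIM30), a microprotein gene, had a log2 fold of -0.21 ± 0.07 for KO against WT (adjusted p = 0.0294), not called without KO 1, KO 3, WT 1 or WT 3 (0.0613 to 0.109), and -0.27 ± 0.07 for addback against WT (adjusted p = 0.0455), not called without any 1 of 6 libraries (0.0854 to 0.129). The call of LINC01000 for addback against KO was lost without KO 2 (0.111), addback 1 (0.103) or addback 3 (0.0852). Under TMM scaling over all tested genes these KO against WT folds were -0.10 for LINC00094, -0.01 for LINC01000 and 0.14 for LINC00998, none of them called, and LINC01000 had a fold of -0.17 for addback against KO.

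Members with known roles that were less abundant gave mixed values. LINC00472 was at 7.07, 5.29 and 7.20 CPM in KO, 10.7, 9.95 and 9.57 CPM in addback and 11.8, 11.1 and 10.8 CPM in WT libraries, a log2 fold of -0.78 ± 0.19 for KO against WT (adjusted p = 0.00734), which TMM over all tested genes gave as -0.44 (adjusted p = 0.102). LINC00467, an RNA repressed by MYCN in neuroblastoma cells, was at 1.69, 1.19 and 1.49 CPM in KO and 2.65, 3.00 and 4.81 CPM in WT libraries. Its log2 fold of -1.26 ± 0.43 (adjusted p = 0.0308) was not called without KO 1, KO 2, KO 3 or WT 3 (adjusted p 0.063 to 0.109). LINC00473, a cyclic AMP responsive RNA, was at 0.330, 0.0720 and 0.461 CPM in KO, 1.11, 2.61 and 3.20 CPM in addback and 0.403, 3.78 and 2.07 CPM in WT libraries. Its KO and WT libraries overlapped, and without WT 2, WT 3, addback 2 and addback 3 its log2 fold for KO against WT was -0.41 (adjusted p = 0.649), against -2.82 with all libraries. LINC00461 (MIR9-2HG), the host of a neural microRNA, LINC00152 (CYTOR), LINC00116 (MTLN, a mitochondrial microprotein), LINC00662, LINC00665, LINC00963, LINC00649, LINC01138 and LINC00526 passed the test in none of the comparisons.

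The count of 30 that defines the members cuts through genes of both kinds. Just inside it stood LINC00920 with a mean of 30 counts, LINC00908 with 30.1 and LINC00222 with 30.2. Just outside it stood LINC01158 with 29.3, LINC00469 with 29.6 and LINC01096 with 29.6. LINC00222 had 0, 0 and 1 counts in KO libraries, whereas LINC00920 had 35, 21 and 35. With a threshold of 100 counts 9 of 72 members (12.5%) were lower in KO than in WT, and with a threshold of 15 counts 118 of 261 (45.2%), beside 53.3% over all tested genes. The known RNAs LINC00961, LINC00511, LINC00839 and LINC00854 fell under the threshold, at mean counts of 17.4, 2.44, 3.22 and 2.89.

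Transcription past the end of genes was deposited as downstream-of-gene regions, stretches after a gene's annotated end that the authors tested separately. All region folds here come from the authors' deposited table. For KO against WT the authors' deposited table held 27 regions that follow a member, of which 7 were higher and 8 lower in KO (adjusted p under 0.05), with 24.8% higher and 25.0% lower among 2541 regions. In the authors' deposited table the region after LINC00460 (chr13:106377793-106388592, plus strand) was higher by a log2 fold of 1.91 ± 0.28 (adjusted p = 2.41e-10), that after LINC00641 (chr14:21190280-21200079, minus strand) by 0.76 ± 0.16 (adjusted p = 6.07e-06), that after LINC00176 by 1.19 ± 0.28 and that after LINC01411 by 0.73 ± 0.14. These 4 members were themselves higher in KO. The other 3 higher regions followed genes that did not pass the test: in the authors' deposited table that after LINC00941 had a log2 fold of 0.93 (gene 0.25, adjusted p = 0.629), that after LINC01515 0.50 (gene 0.44, adjusted p = 0.296) and that after LINC01590 0.54 (gene -0.25, adjusted p = 0.641). Regions after LINC00893 (log2 fold -1.03 ± 0.11) and LINC01000 (-0.36 ± 0.06) were lower in the authors' deposited table, as were both genes, and so were region and gene of LINC00467 (-0.55 ± 0.20 for the region). The lower regions after LINC01410 (-0.58 ± 0.21) and LINC01534 (-0.38 ± 0.07) in the authors' deposited table followed genes that did not pass the test. LINC00893, chosen after its values were seen, was at 3.41, 3.06 and 3.46 CPM in KO and 7.12, 7.18 and 5.57 CPM in WT libraries (log2 fold -1.001, a call lost without KO 2 and under TMM scaling over all tested genes). The regions after LINC00674 (-0.59 ± 0.13), LINC00662 (-0.28 ± 0.06) and LINC01061 (-2.25 ± 0.54) were lower in the authors' deposited table, whereas the log2 fold of LINC00674 itself was 0.12 and the other two genes did not pass the test. The LINC00674 gene call depends on the scaling, with a fold of 0.022 (adjusted p = 0.62) when TMM used only genes with a mean of at least 200 CPM.

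For addback against KO, the authors' deposited table held 26 regions after members, 7 higher and 2 lower, with 18.6% higher and 15.5% lower among 2396 regions. The 2 lower ones followed LINC00176 (log2 fold -0.97 ± 0.33) and LINC00641 (-0.35 ± 0.16), and the region after LINC00460 had a fold of -0.11 ± 0.21. The authors' deposited tables of the 2 comparisons appear to be on different scales, with folds shrunken towards 0 only in addback against KO. Another 15 members stood at the far end of the downstream region of a gene on the same strand: the region met the member's start, with an overlap of 1 or 2 bases, and none of the 15 lay inside it. LINC01341 began where the region after SCCPDH ended, and that region had a log2 fold of 0.33 for KO against WT in the authors' deposited table. LINC00493 likewise followed the region after SEC23B, with a fold of 1.01 in the authors' deposited table, and LINC01000 that after METTL2B, with a fold of -0.82. Cleavage at a poly(A) site usually needs an AATAAA or ATTAAA hexamer upstream of the cut. Of the 130 members with a transcript of the same symbol in GENCODE v29, 98 (75.4%) had at least 1 transcript with such a hexamer in its last 50 bases, against 51.4% of 14937 long noncoding genes. These shares are not like for like, since genes with more annotated transcripts count more easily. The members were also selected on counts from poly(A)-selected RNA, and the 14937 genes were not. The last 40 bases of 2 members that were higher in KO show the site, with the hexamer in capitals.
LINC00641: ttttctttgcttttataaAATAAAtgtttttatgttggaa
LINC00667: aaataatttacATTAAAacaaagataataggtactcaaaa
These ends were picked to show a hexamer, which 2 of the 2 transcripts of LINC00641 and 3 of the 6 of LINC00667 had in their last 40 bases. A hexamer was present in 81.1% of 74 steady members and in 64.7% of 34 members high in libraries 2 and 3.

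**Figure D5:**
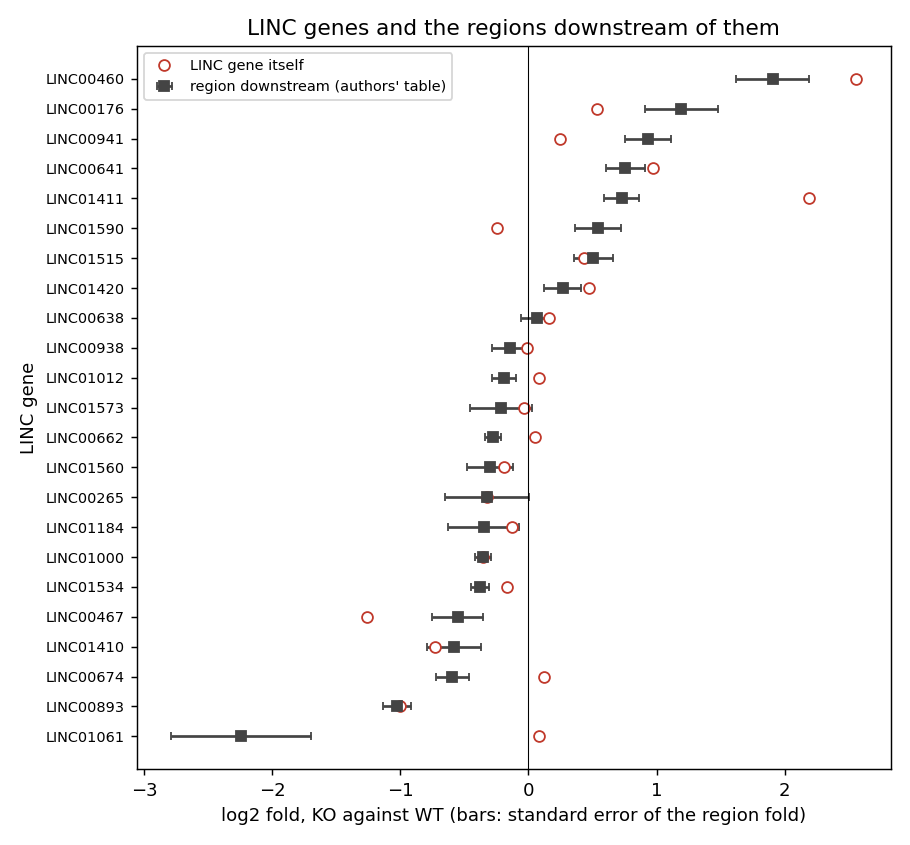
Squares give the log2 fold of KO against WT for regions downstream of 23 LINC genes in the authors' deposited table, with the standard error as a bar, and circles give the fold of the gene itself from the counts. Regions with a standard error of 1 or more are left out. LINC00460, LINC00176, LINC00641 and LINC01411 have both values above 0, and LINC00674, LINC00662 and LINC01061 have a region below 0 and a gene slightly above it.

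Other noncoding genes stood beside the members as follows. All shares stand beside 8.82% higher and 53.3% lower over all tested genes. Of 155 tested LINC genes under the threshold of 30 counts, 9 (5.81%) were higher and 78 (50.3%) lower in KO than in WT. Of 581 tested antisense, intronic, overlapping and divergent genes, 24 (4.13%) were higher and 108 (18.6%) lower. Of 19 small nucleolar RNA host genes, whose introns hold the guides of ribosomal RNA modification, 10 (52.6%) were higher and 0 lower (edgeR, 0 lower also at an unadjusted p under 0.05 and with the DESeq2 test). Of 24 microRNA host genes, 1 (4.17%) was higher and 8 (33.3%) were lower. For addback against KO, with 51.9% higher and 5.6% lower over all tested genes, the same lists gave 83 higher and 2 lower, 100 and 13, 1 and 4, and 7 and 1, or 53.5, 17.2, 5.26 and 29.2% higher and 1.29, 2.24, 21.1 and 4.17% lower. The 519 tested tissue-restricted genes gave 510 lower and 0 higher in KO against WT (edgeR, 0 higher also at an unadjusted p under 0.05 and with the DESeq2 test). In the authors' deposited table for genes, 35 of the 165 members were higher and 56 lower in KO than in WT, with 21.1% and 41.2% of 23806 genes. In the authors' deposited table for addback against KO, 55 were higher and 29 lower, with 39.8% and 22.2% of the genes.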

How the data were processed

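Poly(A) RNA of 9 HEK293 libraries was measured, 3 each of KO, addback and WT. Per the submitters' processing notes cutadapt 1.8.1 and STAR 2.5.2b were among the tools, as was DESeq2, with hg38 as the build and no roles given. What program counted the reads, whether by strand, and on which annotation is not given in the sources used here. A deposited table gives raw counts per gene and library and gene lengths in bases. Columns named KO.U were taken as addback because a deposited comparison table names that group KO with UBE3D, not because of UBE3D counts. The authors' deposited comparison tables give base means (a signal), log2 folds with standard errors, test statistics (a score), p-values and their adjusted form, and were used only where named. No sample column went unused (0).

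Counts were fitted in edgeR 4.0.16 (R 4.3.3): filterByExpr left 21994 genes, TMM factors came from the 5434 genes with a mean of at least 50 CPM, and 1 robust quasi-likelihood fit over the 9 libraries with group as its term gave the 3 contrasts. Genes with a Benjamini-Hochberg adjusted p under 0.05 were called. DESeq2 1.42.0 was an alternative. The edgeR steps were tested on simulated data. Ratios within groups used an offset of 0.02 CPM. A library at 0 was read against a floor of 3 counts over the group, which covers counting error only. Exact permutation tests of 3 against 3 libraries cannot go below 0.1, and gave 0.1 for UBE3D in each pair of groups, and for CPSF3 0.1 for KO against WT and addback against KO and 0.3 for addback against WT.

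Replicate numbers come from the titles. Same-number libraries of addback and WT deviated together from their group means (correlations over all genes 0.89, 0.60 and 0.74), so they were taken as paired. Libraries of different numbers were not compared in this way, so a true pairing is not shown. In the contrasts with KO the correlations were -0.05 to 0.01. Replicates differed beyond counting noise (chi-square over degrees of freedom 1.95 to 42.7).

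Coordinates are 1-based on hg38 as deposited, and neighbours, RefSeq names and promoters were looked up by symbol. Of the members, 9 have loci on several chromosome names, and 14 share exon bases with another gene, so their counts are uncertain. Members named are those with the largest called folds whose libraries do not overlap, the 10 with the highest CPM per kilobase, a list with known roles and the genes at the threshold. The members, classes and lists were chosen with earlier results of these data known. Alternatives were other scalings, no low count filter, DESeq2, other thresholds, the replicate block and libraries left out.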

Additional observations from a re-analysis of the deposited data

How the results depend on the processing

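All values are counts of called members unless a log2 fold is named, and the cause of each change was not tested, apart from the threshold, where the number of members itself changes. Of 66 log2 folds named in the text, 2 reversed and 15 lost their call under TMM over all tested genes, and 2 reversed and 12 lost it under DESeq2 size factors. The 4 reversed values were LINC00998 in KO against WT (0.14 and 0.062) and LINC01000 in addback against KO (-0.17 and -0.13), in the order of those scalings. The DESeq2 test gave no adjusted p for LINC00460, LINC01411 and LINC00672 in addback against WT, and kept the call of the other 63. With TMM over all tested genes, KO against WT gave 30 higher, addback against KO 20 lower, and addback against WT 3 higher and 0 lower. With DESeq2 size factors, addback against KO gave 21 lower and addback against WT 4 higher and 0 lower. Where 0 were lower, edgeR gave 5 (TMM) and 7 (DESeq2 factors) at an unadjusted p under 0.05. Upper quartile factors gave 5 higher in addback against WT, and the DESeq2 test 7 lower. A threshold of 100 counts gave 9 lower in KO against WT and 7 higher in addback against KO, and a threshold of 15 gave 118 in each.

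With the replicate number as a block, KO against WT gave 21 higher and 64 lower, addback against KO 62 higher and 10 lower, and addback against WT 8 higher and 5 lower. The block changed the call of none of the 66 named folds. The fit without WT 2, WT 3, addback 2 and addback 3 left 1 library each in WT and addback, so its counts of called members are not given. Leaving out each library in turn gave 17 to 19 higher and 41 to 60 lower in KO against WT, 35 to 58 higher and 8 to 9 lower in addback against KO, and 5 to 8 higher and 1 to 3 lower in addback against WT.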
